A study of Homo sapiens with 11 samples.

Results

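Imprinted genes were followed in HK2 cells, an immortalised human line of kidney proximal tubule origin. The 34 members were taken by name from a list with no threshold on a measured value, although earlier results of these data were known when it was drawn up. All 34 were found among the 58243 genes of the RNA-seq data, 30 of them protein-coding and 4 long noncoding RNA (lncRNA) genes, and they lie in 18 imprinted domains. The labels give the same cells and no treatment for all samples, so there was a single condition and no contrast. Peaks of H3K4me3, H3K27ac and H3K27me3 from ChIP-seq were available for 2 replicates of each mark, and RNA-seq for 2 libraries. Nothing in the labels says that replicates were separate cultures, so the spread between them may be technical. The samples of input DNA and of HiChIP were left out and are not analysed here.

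In an imprinted gene, the copy inherited from the mother and the copy from the father are used unequally, often with one of them silent. The choice is set in the germ line by DNA methylation at imprinting control regions and is kept through cell division. Many imprinted genes act on growth, the placenta or behaviour, and several lie in clusters where a lncRNA from one parental copy goes with silence of its neighbours on the same chromosome. At imprinting control regions, the methylated copy and the unmethylated copy are known to carry different histone marks. H3K4me3 marks promoters, H3K27ac marks active promoters and enhancers, and H3K27me3 is laid down by Polycomb repressive complexes. Neither the peaks nor the RNA values used here were separated by allele, so marks on the same copy and marks on opposite copies cannot be told apart.

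Expression was read as FPKM, which scales the fragments of a transcript by its length and by the depth of the library, summed over the transcripts of a gene in each library. A mark was taken as present at a transcription start site (TSS) where a peak touched the 1 kb on either side of it in both replicates, in GRCh37 coordinates. A start was called bivalent where H3K4me3 and H3K27me3 were both present by this rule at the same TSS. Starts of a gene within 1 kb of each other were joined, which gave 135 groups of starts for the 34 members.

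The lists differed in what they called. Replicate 1 and replicate 2 held 28615 and 73505 peaks of H3K4me3, 57687 and 38554 of H3K27ac, and 45858 and 32639 of H3K27me3. Peak heights and read counts per peak were not given, so how many reads made up a peak is unknown. The study lists more aligned read pairs for the first replicate of every mark, and a higher share of reads in peaks for the first replicate of H3K4me3 and H3K27ac. The part of these differences in peaks called in a single replicate was not tested. The RNA-seq libraries carried 4.54 and 4.42 Gb of aligned bases over annotated transcripts. Of 9 proximal tubule markers, 4 reached an FPKM of 1 in both libraries, with PAX8 the highest at 100.2 and 104 and LRP2 and SLC22A6 listed at 0, so the labelled cell type was met by only some of its markers. Epithelial KRT8, KRT18 and EPCAM lay between 39.9 and 184 and CDH1 at 0.210 and 0.283, and podocyte, endothelial and leukocyte markers stayed under 1. Of 3 fibroblast markers, COL1A1 was at 40.3 and 39.9, DCN at 0.659 and 0.0525 and PDGFRA at 0.0440 and 0.

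Imprinted genes in HK2 cells ranged from highly transcribed to listed at 0. Of 34 members, 19 reached an FPKM of 1 in both libraries, 9 of them at 20 or more in both, 7 were under 0.1 in both, and the other 8 lay between. The lowest mean of the 9, NDN at 20.1, lay above that of 82.4% of protein-coding genes. The highest mean of the 7, MAGEL2 at 0.0283, lay above that of 24.7%. Among protein-coding members 18 of 30 (60%) passed, a share near the 58.8% of the 19645 protein-coding genes with a start on GRCh37. Among the lncRNA members only H19 passed, 1 of 4 beside 4.84% of 14153 lncRNA genes. The median FPKM of the members was 1.75, and that of all protein-coding genes was 3.32. On the scale of log2(FPKM + 1) the medians were 1.45 and 2.10.

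**Figure D1:**
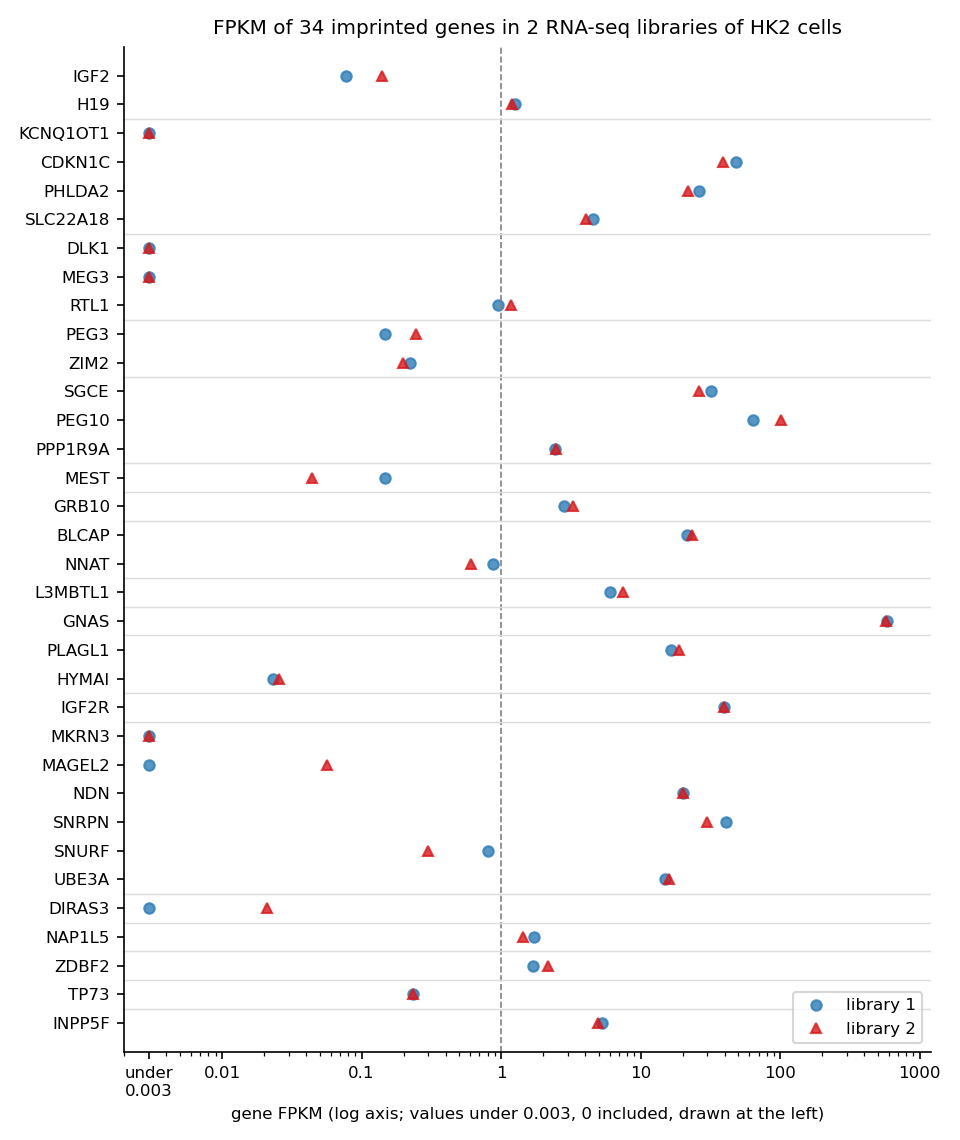
Gene FPKM (log axis) of the 34 imprinted genes in library 1 (circles) and library 2 (triangles), with domains separated by grey lines and the dashed line at FPKM 1. GNAS lies far to the right at 579 and 573, while DLK1, MEG3 and MKRN3 are listed at 0 in both libraries.

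H3K4me3 was present at a start of 25 of 34 members, 23 of 30 protein-coding members (76.7%) beside 70.0% of protein-coding genes and 2 of 4 lncRNA members beside 23.5% of lncRNA genes. H3K27ac was present at 16, all protein-coding, which is 53.3% of the 30 beside 55.0% of protein-coding genes. H3K27me3 was present at 8 members. These were IGF2, DLK1, RTL1, GRB10, GNAS, PLAGL1 and TP73, 7 of 30 protein-coding members (23.3%) beside 11.2%, and MEG3, 1 of 4 lncRNA members beside 6.10%. GRB10, GNAS, PLAGL1 and TP73 had a bivalent start, 4 of 30 protein-coding members (13.3%) beside 6.38%. Of the 34 members, 10 have a start within 1 kb of that of another member, so some peaks were counted for both. The counts for H3K27me3 and for bivalent starts rest on the use of all annotated starts, since at the start of the canonical transcript alone they were 4 and 1. These 4 are 13.3% of the protein-coding members beside 9.41% of protein-coding genes, and a bivalent canonical start was found at 1 of 30 beside 5.42%. Thus at canonical starts the share with H3K27me3 came nearer to that of all protein-coding genes, and the share with a bivalent start fell below it. H3K4me3 was present at 24 of 34 members at canonical starts and H3K27ac at 13, beside 66.8% and 50.8% of protein-coding genes. With peaks of at least 500 bp, H3K27ac was present at 11, beside 45.2%. With H3K4me3 and H3K27me3 peaks of replicate 2 alone, 7 of 30 protein-coding members had a bivalent start beside 10.0% of protein-coding genes, and the 3 added ones were IGF2, DLK1 and MAGEL2.

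**Figure D2:**
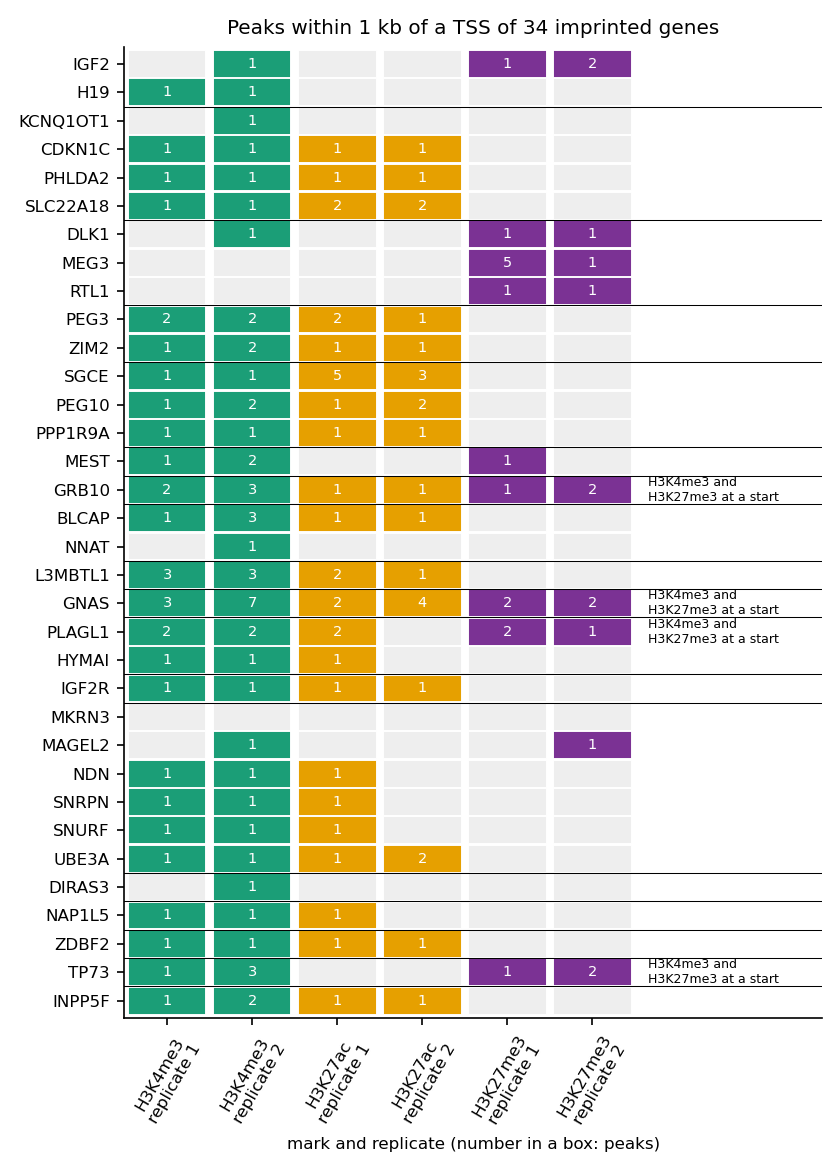
Number of peaks within 1 kb of any annotated TSS of each imprinted gene, by mark and replicate, with grey boxes for no peak and black lines between domains. H3K27me3 boxes are filled in both replicates for 8 genes, and 4 of these had H3K4me3 at the same start.

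Levels went with H3K4me3. The 25 members with H3K4me3 had a median FPKM of 5.12 and 19 of them reached 1 in both libraries. The 9 members without it had a median of 0.0105, and 0 of 9 reached 1 in both. The difference in median log2(FPKM + 1) was 2.60, and the same difference over all protein-coding genes was 3.22. Of protein-coding genes with H3K4me3, 81.6% reached FPKM 1 in both libraries, and of those without it, 5.53%. No test was made, since members of a domain are not independent and were chosen with earlier results known.

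Divided further, 14 members carried H3K4me3 with H3K27ac and no bivalent start, with a median FPKM of 11.1 beside 11.7 for protein-coding genes of that class. H3K4me3 without H3K27ac or a bivalent start was found at 7, with a median of 1.23 beside 2.62. The 4 members with a bivalent start had a median of 10.3, beside 0.159 for the 1253 protein-coding genes of that class, of which 21.7% reached FPKM 1. These are levels of whole genes, and most of the FPKM of GNAS, PLAGL1 and GRB10 came from other starts. Transcripts of the bivalent starts had 3.46 and 4.67, and 2.13 and 0.977, in GNAS. They had 3.21 and 3.94 in PLAGL1, 1.29 and 0.954 in GRB10, and 0.232 and 0.179 in TP73. H3K27me3 alone was found at 4 members and no mark in both replicates at 5, and none of these 9 reached FPKM 1 in both libraries. Of protein-coding genes of these last classes, 0.589% and 6.36% did. The classes held 52.4%, 11.3%, 6.38%, 4.32% and 25.7% of all protein-coding genes, in the order given here.

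**Figure D3:**
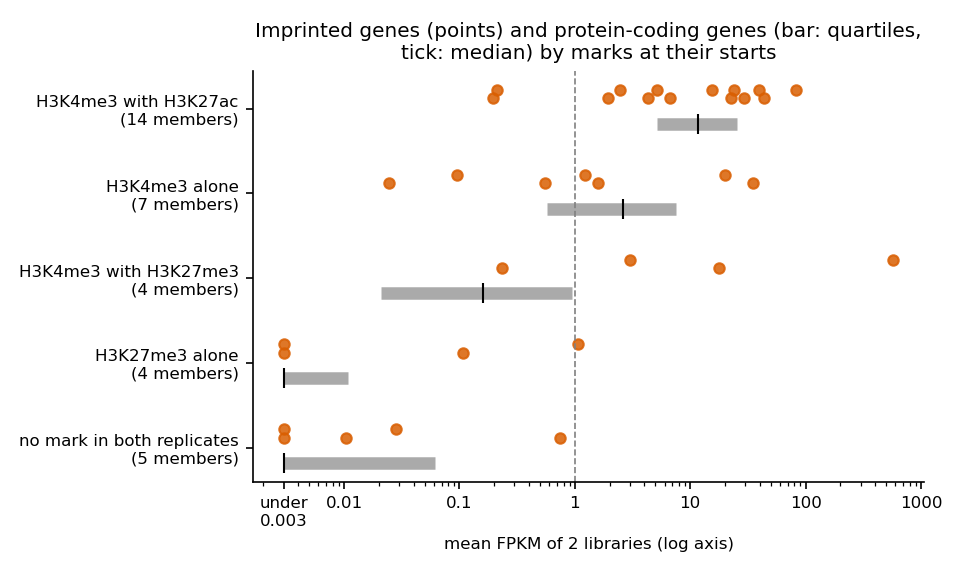
Mean FPKM of 2 libraries (log axis) for each imprinted gene (points) by the marks at its starts, above the quartiles (grey bar) and median (tick) of all protein-coding genes of the same class. GNAS, PLAGL1 and GRB10 lie above the upper quartile of 0.937 of protein-coding genes with a bivalent start, and TP73 at 0.233 lies within the quartiles. GRB10 and GNAS also had H3K27ac. The levels are of whole genes, and most of the FPKM of GNAS, PLAGL1 and GRB10 came from starts that were not bivalent.

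The bivalent starts were 5 in number, 2 of them in GNAS. Their sequences are shown because both marks were called there, each from 270 bases before the first TSS with both marks to 30 bases from it, 5′ to 3′ on the strand of the gene, read from GRCh37. Capitals mark the hexamer TGCCGC or its reverse complement GCGGCA, the letters that the zinc finger protein ZFP57 reads when their CG is methylated.
GNAS start 1, chr20:57414503-57414802, plus strand: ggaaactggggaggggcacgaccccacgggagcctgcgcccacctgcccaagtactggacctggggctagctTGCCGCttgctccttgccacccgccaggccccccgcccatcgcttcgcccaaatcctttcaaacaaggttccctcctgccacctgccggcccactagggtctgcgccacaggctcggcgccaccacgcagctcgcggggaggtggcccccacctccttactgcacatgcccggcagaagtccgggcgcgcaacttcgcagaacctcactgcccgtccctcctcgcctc
GNAS start 3, chr20:57427499-57427798, plus strand: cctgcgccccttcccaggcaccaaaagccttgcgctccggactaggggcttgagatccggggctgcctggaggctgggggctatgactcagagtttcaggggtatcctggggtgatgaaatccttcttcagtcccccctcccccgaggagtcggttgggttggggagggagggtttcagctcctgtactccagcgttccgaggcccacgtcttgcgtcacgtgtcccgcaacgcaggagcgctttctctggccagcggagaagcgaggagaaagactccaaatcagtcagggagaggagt
GRB10 start 1, chr7:50861130-50861429, minus strand: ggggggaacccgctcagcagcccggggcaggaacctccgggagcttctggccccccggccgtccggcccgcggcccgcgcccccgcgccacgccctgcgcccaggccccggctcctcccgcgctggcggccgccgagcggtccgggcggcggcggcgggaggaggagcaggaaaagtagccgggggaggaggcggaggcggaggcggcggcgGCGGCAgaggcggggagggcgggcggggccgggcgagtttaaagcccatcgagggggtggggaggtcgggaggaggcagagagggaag
PLAGL1 start 1, chr6:144385707-144386006, minus strand: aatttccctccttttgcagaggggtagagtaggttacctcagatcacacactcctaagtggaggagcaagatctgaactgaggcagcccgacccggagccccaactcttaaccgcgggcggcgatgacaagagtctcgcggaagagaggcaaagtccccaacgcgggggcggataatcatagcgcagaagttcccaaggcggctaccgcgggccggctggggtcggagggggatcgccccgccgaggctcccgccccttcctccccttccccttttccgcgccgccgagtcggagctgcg
TP73 start 1, chr1:3568810-3569109, plus strand: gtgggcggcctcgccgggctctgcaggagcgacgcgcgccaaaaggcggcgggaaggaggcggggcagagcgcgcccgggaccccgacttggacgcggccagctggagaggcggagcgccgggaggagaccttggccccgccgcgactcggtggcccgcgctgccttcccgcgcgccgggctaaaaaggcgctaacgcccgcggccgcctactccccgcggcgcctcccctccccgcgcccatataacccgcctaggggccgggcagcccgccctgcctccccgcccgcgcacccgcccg

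The windows varied in CG. They held 22, 16, 40, 27 and 47 CG dinucleotides in the order given, beside a median of 22 (quartiles 9 and 32) over the windows of the same length at 19547 canonical protein-coding starts. Those of GRB10 and TP73 lay above the upper quartile and the others within the quartiles. The hexamer occurred in 2 of the 5, once each at the first starts of GNAS and GRB10, and in 20.9% of the protein-coding windows. It also occurred in 9 of the 30 windows at members' other starts with H3K4me3, some of which overlap. Whether any CG was methylated was not measured in these data.

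GNAS encodes the alpha subunit of the stimulatory G protein, which couples hormone receptors to cyclic AMP. It uses alternative first exons that differ in their parental origin, with NESP55 from the maternal copy and XLαs from the paternal copy. The gene (ENSG00000087460) lies on chromosome 20 from 57414773 to 57486247 on the plus strand. It had the highest FPKM of all members, 579 in library 1 and 573 in library 2, a mean of 576 ± 3.96 (SD, n = 2).

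Marks and RNA divided along GNAS. The first group of starts (57414773 to 57416709) was bivalent, with an FPKM of 3.46 and 4.67 for its transcripts, which is 0.597% and 0.815% of the gene. The third group (57427769 to 57428321) was bivalent too, with an FPKM of 2.13 and 0.977, or 0.367% and 0.170% of the gene. Between them, a start at 57418380 had H3K27me3 without H3K4me3 and an FPKM of 0.000794 and 0.149. Thus the bivalent starts of the most transcribed member held under 1 percent of its FPKM each.

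Most of the GNAS signal came from starts 48.7 and 51.6 kb into the gene. The fourth group of starts (57463468 to 57464936) had an FPKM of 440 and 438, and the fifth (57466357 to 57468155), which holds the canonical start, 118 and 115. Both groups carried H3K4me3 and H3K27ac in both replicates and no H3K27me3 peak in either. The share of the fourth group rests on how reads in shared exons were assigned, since a single transcript of 1534 bases (ENST00000480975) took 364 and 398 of its FPKM. A transcript of 897 bases from the same group (ENST00000488546) was given 42.3 in library 1 and listed at 0 in library 2.

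At the third group of starts the marks lay side by side. The H3K27me3 peaks began 225 bp past the nearest TSS in replicate 1 and 116 bp past it in replicate 2, whereas H3K4me3 peaks covered a TSS in both. The H3K4me3 and H3K27me3 peaks that reach this start shared no base in replicate 1 and 2154 bp in replicate 2. At the first group, they shared 296 and 1743 bp. None of the 300 bases printed for either GNAS start lay under an H3K27me3 peak.

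H3K27me3 covered 25.5 kb of the 71.5 kb of GNAS in replicate 1 and 13.6 kb in replicate 2, the largest share of any domain in either replicate (35.7% and 19.1%). Chromosome 20 as a whole held many H3K27me3 peaks, 3596 and 4254 in the replicates, and 22.3% of its protein-coding genes had H3K27me3 at a start, beside 10.6% of those outside chromosomes 10 and 20. The part of this in the GNAS result was not tested. The other members on these chromosomes, NNAT, BLCAP and L3MBTL1 on chromosome 20 and INPP5F on chromosome 10, had no H3K27me3 peak at a start in either replicate. With the 4 members on chromosome 20 and the 1 on chromosome 10 left out of the 34, 7 members had H3K27me3 and 3 a bivalent start. The 7 include the lncRNA MEG3, while the 3 are protein-coding. Of protein-coding genes outside these chromosomes, 10.6% had H3K27me3 and 6.18% a bivalent start.

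**Figure D4:**
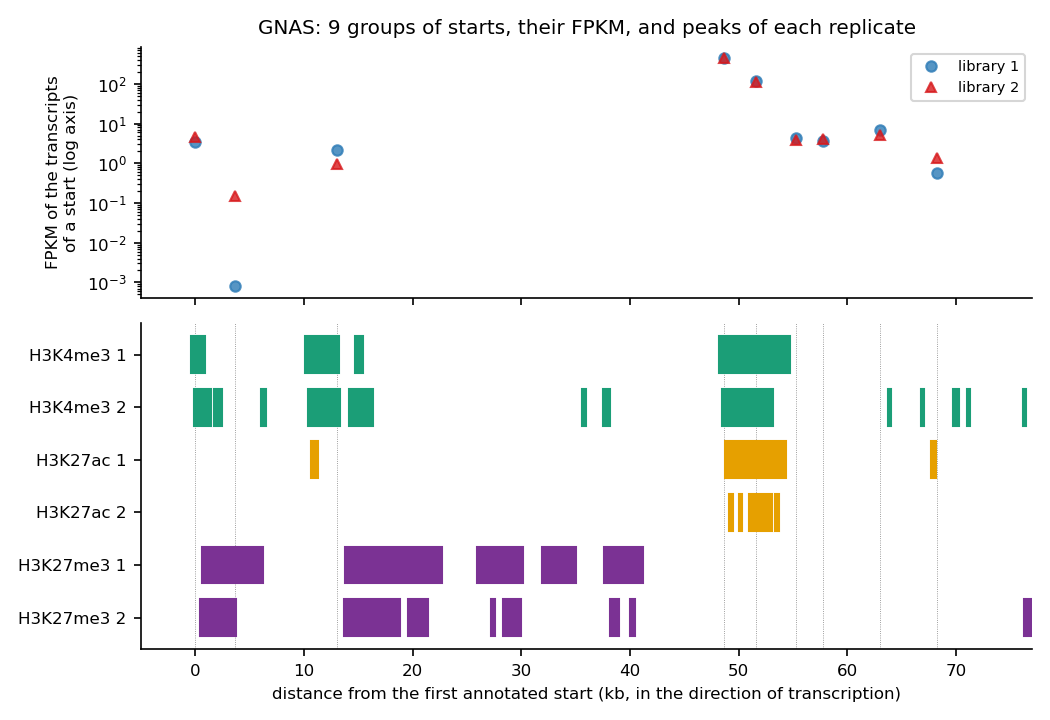
FPKM of the transcripts of each group of GNAS starts (upper panel, log axis, circles for library 1 and triangles for library 2) and peaks of the 6 lists (lower panel) by distance in kb from the first annotated start, with dotted lines at the starts. All H3K27me3 peaks but 1, a replicate 2 peak from 76.3 kb, lie between the first start and the group at 48.7 kb, from which the starts of highest FPKM begin, under H3K4me3 and H3K27ac.

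GRB10, an adaptor that binds receptor tyrosine kinases and restrains insulin signalling, is expressed from either parental copy depending on the tissue and its promoter. It (ENSG00000106070) lies on chromosome 7 from 50657760 to 50861159 on the minus strand. Its FPKM was 2.82 and 3.25. The first group of starts (50860381 to 50861159) was bivalent and had H3K27ac in both replicates as well, the only bivalent start of a member to carry all 3 marks in both replicates. Its H3K4me3 and H3K27me3 peaks shared 1945 and 1226 bp, and all 300 bases printed lay under both marks in both replicates.

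Transcripts from the bivalent GRB10 start had an FPKM of 1.29 and 0.954, or 45.5% and 29.4% of the gene. A start 61.1 kb further (50800050) with no peak of any mark within 1 kb had 0.570 and 1.11. An H3K27ac peak of replicate 1 lay just beyond that distance. The second group of starts, 10.6 kb from the first (50849127 to 50850607), had H3K4me3 without H3K27ac or H3K27me3 and an FPKM of 0.224 and 0.0892. Its window is shown because it held the hexamer 2 times, the highest number at a GRB10 start with H3K4me3, although it lay under an H3K4me3 peak in replicate 2 only.
GRB10 start 2, chr7:50850578-50850877, minus strand: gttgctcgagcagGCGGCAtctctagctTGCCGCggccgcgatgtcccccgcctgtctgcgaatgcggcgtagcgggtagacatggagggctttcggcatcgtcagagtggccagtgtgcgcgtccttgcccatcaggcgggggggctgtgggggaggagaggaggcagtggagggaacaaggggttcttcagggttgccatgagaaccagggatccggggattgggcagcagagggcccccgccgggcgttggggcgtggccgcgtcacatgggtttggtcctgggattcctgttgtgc

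PLAGL1, a zinc finger factor that slows cell growth, is paternally expressed from its downstream promoter, which also gives the lncRNA HYMAI. PLAGL1 (ENSG00000118495) lies on chromosome 6 from 144261437 to 144385736 on the minus strand, and its FPKM was 16.6 and 18.7. HYMAI lies inside it from 144326053 to 144329399. The FPKM of HYMAI was 0.0232 and 0.0256, far under that of PLAGL1 in both libraries.

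The PLAGL1 starts differed in their marks. The upstream start (144385648 to 144385736) was bivalent, with an FPKM of 3.21 and 3.94, or 19.4% and 21.1% of the gene. H3K27me3 peaks began 169 bp from the TSS in replicate 1 and 46 bp from it in replicate 2, on the upstream side, and shared 458 and 265 bp with H3K4me3 peaks. H3K27ac was called there in replicate 1 only.

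The downstream group of starts (144328484 to 144329960), 55.8 kb away, had H3K4me3 in both replicates, no H3K27me3 peak in either and H3K27ac in replicate 1 only. Its transcripts had an FPKM of 10.9 and 11.5, or 65.4% and 61.4% of the gene. The window of the HYMAI start is shown because it lies at this downstream promoter and held the hexamer 3 times, the most of the 35 windows at members' starts with H3K4me3, with 37 CG dinucleotides. Both H3K4me3 replicates covered all of it.
HYMAI start, chr6:144329370-144329669, minus strand: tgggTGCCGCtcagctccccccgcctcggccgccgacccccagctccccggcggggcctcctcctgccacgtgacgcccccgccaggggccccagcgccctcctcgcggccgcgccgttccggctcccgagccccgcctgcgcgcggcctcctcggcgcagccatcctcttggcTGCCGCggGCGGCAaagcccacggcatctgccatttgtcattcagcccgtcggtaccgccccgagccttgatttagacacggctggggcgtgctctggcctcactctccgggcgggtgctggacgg

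TP73, a relative of the tumour suppressor p53 whose imprinting is reported to vary between tissues, had a low level. It (ENSG00000078900) lies on chromosome 1 from 3569080 to 3652765 on the plus strand, with an FPKM of 0.232 and 0.234. Its first start was bivalent in both replicates, without H3K27ac. The H3K4me3 peaks there were 513 and 673 bp wide and lay wholly within H3K27me3 peaks of 5563 and 3213 bp. A start 45.5 kb further had H3K4me3 and H3K27me3 peaks in replicate 2 only, and its transcripts were listed at 0 in both libraries.

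**Figure D5:**
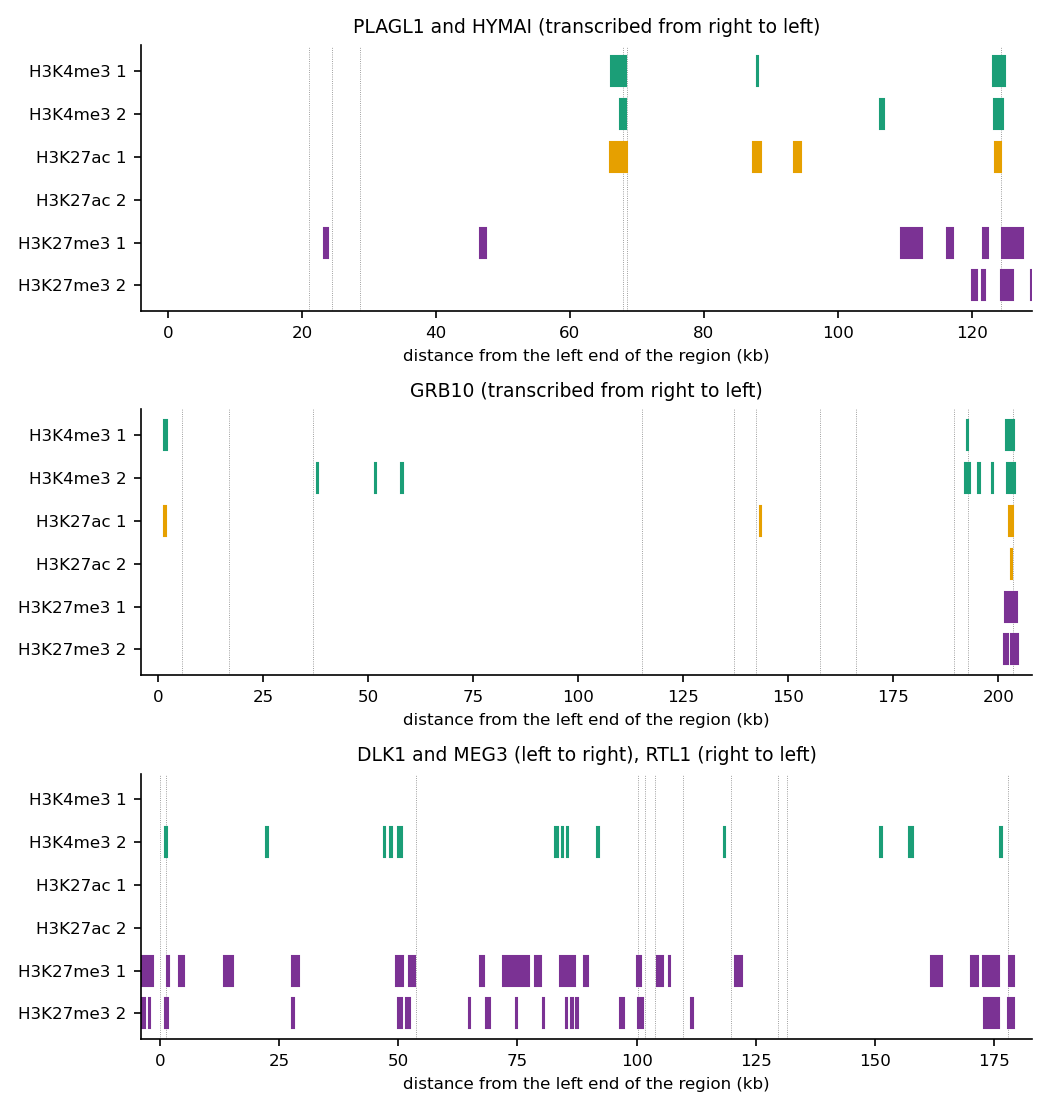
Peaks of the 6 lists by distance in kb from the left end of the PLAGL1 region, of GRB10 and of the DLK1 to RTL1 region, with dotted lines at annotated starts. H3K4me3 and H3K27me3 meet at the right-hand (first) starts of PLAGL1 and GRB10, while in the DLK1 to RTL1 region no H3K27ac peak was called and H3K4me3 is called in replicate 2 only.

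H3K27me3 without H3K4me3 in both replicates was found at the fetal growth gene IGF2 and at the DLK1 to MEG3 cluster. IGF2, an insulin-like growth factor normally expressed from the paternal copy, lies on chromosome 11 from 2150342 to 2179621. Its FPKM was 0.0771 in library 1 and 0.139 in library 2. Of its groups of starts, 3 lay under an H3K27me3 peak of 5556 bp in replicate 1 and of 4738 bp in replicate 2, and 1 of these also had an H3K4me3 peak of 273 bp in replicate 2 only.

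H19, the maternally expressed lncRNA that shares enhancers with IGF2, showed the other pattern. It lies from 2016396 to 2025782 on the same chromosome. The FPKM of H19 was 1.26 and 1.20. H3K4me3 peaks of 1011 and 599 bp lay at its start, with no H3K27ac or H3K27me3 peak in either replicate. Thus the pair differed in marks, and H19 had the higher FPKM in both libraries.

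In the DLK1 to MEG3 cluster on chromosome 14 (101192042 to 101370059), DLK1 encodes a growth regulator related to Notch ligands, RTL1 is a retrotransposon-derived gene of the paternal copy, and MEG3 is a lncRNA of the maternal copy. DLK1 and MEG3 were listed at 0 in both libraries. The 27 MEG3 transcripts of the RNA annotation were all at 0. The FPKM of RTL1 was 0.951 and 1.18, on either side of the threshold of 1. The RTL1 transcript of the RNA files was not matched to a start of the GRCh37 annotation, and maternal transcripts run antisense to it. The read assignment was run without a strand option, so whether its reads came from RTL1 or from the antisense strand cannot be told apart.

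H3K27me3 covered 29.9 kb of the 178 kb of this cluster in replicate 1, in 18 peaks, and 11.4 kb in replicate 2, in 16 peaks. It was present within 1 kb of a start of each of the 3 genes, with peaks of 476 and 752 bp at the canonical DLK1 start, 878 and 985 bp at the second group of MEG3 starts, and 1078 and 1339 bp at RTL1. The replicate 2 peaks covered the DLK1 and RTL1 starts, while the replicate 1 peaks lay beside them. The canonical MEG3 start (101245747) had H3K27me3 in replicate 1 only. No H3K27ac peak was called in either replicate. H3K4me3 peaks numbered 0 in replicate 1 and 13 in replicate 2, the widest of them 0.796 kb, and the replicate 2 list was the one with 73505 peaks genome-wide. A DLK1 start had an H3K4me3 peak in replicate 2 only.

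The KCNQ1OT1 domain, beside IGF2 and H19 on chromosome 11 (2618538 to 2950650), held genes with active marks. KCNQ1OT1 is the paternal antisense lncRNA whose transcription goes with silence of neighbours in this domain. It was listed at 0 in library 1 and at 0.000005 in library 2, and an H3K4me3 peak of 451 bp lay at its start in replicate 2 only.

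The maternally expressed growth inhibitors of the domain were transcribed. CDKN1C, a cyclin-dependent kinase inhibitor, had an FPKM of 48.5 and 38.7. PHLDA2, which limits placental growth, had 26.2 and 22.0, and SLC22A18, a membrane transporter, had 4.59 and 4.07. All carried H3K4me3 and H3K27ac at a start in both replicates and no H3K27me3 peak in either. The H3K4me3 peaks at PHLDA2, 3226 and 3321 bp wide, spanned the whole gene. At SLC22A18, H3K4me3 in both replicates lay at a second group of starts (2923508 to 2924606), while the first start (2920951) had H3K27ac alone. Transcripts not matched to a start held 80.2% and 38.5% of the SLC22A18 FPKM.

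On chromosome 7, PEG10 and SGCE are divergent paternally expressed genes that share a promoter. PEG10, derived from a retrotransposon and required for the placenta, had an FPKM of 63.7 and 101.3. SGCE, a sarcoglycan of the cell membrane, had 31.7 and 26.4. Both starts lay under the same H3K4me3 peaks of 3489 and 2800 bp with H3K27ac, so the promoter was counted for both. PPP1R9A (neurabin), an actin-binding neighbour, had 2.42 and 2.49 with the same marks at its own start. No H3K27me3 peak was called over the 772 kb from SGCE to PPP1R9A in either replicate.

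Among the 19 members that reached an FPKM of 1 in both libraries, only PEG10 differed by over 1.5-fold between libraries, beside 5.06% of the 11549 protein-coding genes that reached 1. Its ratio of library 2 to library 1 was 1.59 by FPKM, while the bases aligned to it fell from 1236 to 843 kb. These measures went opposite ways, and its reads were shared out differently between transcripts of unequal length. The transcript of 6618 bases (ENST00000482108) had an FPKM of 26.9 and 11.5, and one of 763 bases (ENST00000493935) had 22.3 and 77.6.

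Paternally expressed PEG3, a zinc finger gene, and ZIM2, which shares its first exons, stood apart among genes with active marks. PEG3 lies on chromosome 19 from 57321445 to 57352096. The FPKM of PEG3 was 0.147 and 0.245, and that of ZIM2 was 0.222 and 0.199. Their common start nevertheless had H3K4me3 peaks of 1254 and 1433 bp and H3K27ac peaks of 2376 and 398 bp. The 12 other members with H3K4me3 and H3K27ac and no bivalent start all reached FPKM 1 in both libraries, and 92.5% of protein-coding genes of that class did.

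Further members with active marks included genes whose imprinting is partial or limited to some tissues. IGF2R, the receptor that clears IGF2, had an FPKM of 39.7 and 39.8. UBE3A, the ubiquitin ligase of Angelman syndrome, had 14.8 and 16.1, and BLCAP, a tumour suppressor candidate, had 21.5 and 23.4. L3MBTL1, a reader of methylated histones related to Polycomb proteins, had 5.99 and 7.45. ZDBF2, a zinc finger gene, had 1.69 and 2.16, and INPP5F, an inositol phosphatase, had 5.25 and 4.98. None of these 6 had an H3K27me3 peak at a start in either replicate.

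The start of the short INPP5F transcripts, known as the imprinted variant, was separate from the main start. It lies 92.6 kb into the gene (121578198 to 121579019) and had an H3K4me3 peak in replicate 2 only, with an FPKM of 0.481 and 0.0199. The main start had H3K4me3 and H3K27ac in both replicates. Most of the INPP5F FPKM, 87.5% and 96.3%, belonged to transcripts that were not matched to a start.

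Chromosome 15 held the Prader-Willi cluster (23810821 to 25684198), in which SNRPN, SNURF, NDN, MAGEL2 and MKRN3 are paternally expressed. SNRPN, a component of the splicing machinery, had an FPKM of 41.0 and 29.7, and NDN, a growth suppressor of the MAGE family, had 20.1 and 20.1. MKRN3, a zinc finger protein that holds back puberty, was listed at 0 in both libraries and had no peak of any mark at a start. MAGEL2 was listed at 0 and 0.0566, with 1 peak each of H3K4me3 and H3K27me3 in replicate 2 only. Thus levels varied within the cluster from 0 to over 20.

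At SNRPN a single group of starts (25200082 to 25200152) held 99.8% and 99.9% of the FPKM. It carried H3K4me3 peaks of 2386 and 1812 bp, no H3K27me3 and, within 1 kb, H3K27ac in replicate 1 only. With a window of 2 kb, H3K27ac was present in both replicates. The upstream starts had no mark. SNURF is encoded by the first exons of the same RNA, and its own transcripts had an FPKM of 0.801 and 0.301, so the split of reads between both genes is uncertain. The SNURF window is shown because it lies at this imprinting control region and held the hexamer 2 times.
SNURF start, chr15:25199864-25200163, plus strand: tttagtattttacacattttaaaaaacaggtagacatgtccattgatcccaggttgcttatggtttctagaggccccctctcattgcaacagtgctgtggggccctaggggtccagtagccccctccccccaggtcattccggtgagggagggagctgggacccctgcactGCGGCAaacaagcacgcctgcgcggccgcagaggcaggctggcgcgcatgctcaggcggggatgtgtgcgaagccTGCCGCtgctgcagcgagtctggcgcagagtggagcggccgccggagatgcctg

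The paternally expressed genes NDN, SNRPN, SNURF and NAP1L5 and the lncRNA HYMAI had H3K4me3 in both replicates and H3K27ac in replicate 1 only, as did both marked starts of PLAGL1. NAP1L5, a small gene inside an intron of HERC3, had an FPKM of 1.71 and 1.45. Over all starts of members, H3K27ac was called in replicate 1 alone at 15 groups and in replicate 2 alone at 0, so that the absence of H3K27ac at these genes rests on replicate 2. For SNRPN and SNURF it rests on the window as well, since with 2 kb on either side both had H3K27ac in both replicates.

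MEST, a paternally expressed gene of the hydrolase family, had H3K4me3 with little RNA. Its FPKM was 0.148 and 0.0438. The group of starts from 130131170 to 130132313 on chromosome 7 had H3K4me3 peaks of 1437 and 734 bp without H3K27ac, and its transcripts had 0.0485 and 0.0438. An H3K27me3 peak of 833 bp lay beside it in replicate 1 only, which adds MEST to the bivalent members where replicate 1 is used alone.

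NNAT and DIRAS3 were among the 5 members with no mark in both replicates, together with KCNQ1OT1, MKRN3 and MAGEL2. NNAT, a small membrane protein of the developing brain, lies in an intron of BLCAP on the opposite strand and had an FPKM of 0.880 and 0.604. Its start had an H3K4me3 peak of 487 bp in replicate 2 only. DIRAS3, a small GTPase that acts as a growth suppressor, was listed at 0 and 0.0209, again with an H3K4me3 peak in replicate 2 only. H3K4me3 was called in replicate 2 alone at 18 groups of starts and in replicate 1 alone at 1, and the replicate 2 list is the longer. The part of list length in these single-replicate peaks was not tested.

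H3K4me3 was not called in both replicates at 100 of the 135 groups of starts, and 7 of these reached an FPKM of 1 in both libraries. They lay at PEG10 (1 group), BLCAP (1), IGF2R (2) and GNAS (3), each of which had another start with H3K4me3 and H3K27ac. Of the 2 at IGF2R, 1 with an FPKM of 1.33 and 1.47 rests on a transcript that the RNA data do not list under IGF2R. That value is not part of the IGF2R level given above. The highest was the second PEG10 start, 8.41 kb from the first, at 7.83 and 7.14. Of the transcripts of members in the RNA files, 23 of 355 were not matched to an annotated start, and they held all of the FPKM of NDN, NNAT, RTL1 and MAGEL2, 65.0% and 63.2% of that of UBE3A, 12.1% and 38.6% of that of SGCE and 11.7% and 3.71% of that of L3MBTL1, beside the shares of INPP5F and SLC22A18 given with those genes. For PLAGL1 the unmatched share was 6.65% and 7.77%, and for each other member it was under 2 percent in both libraries.

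Proteins that keep or erase imprints were measured in the same libraries. Of 30 genes of this kind, 20 (66.7%, beside 58.8% of protein-coding genes) reached an FPKM of 1 in both libraries and 8 were listed at 0. TRIM28, the corepressor recruited by ZFP57, was highest at 194 and 188, followed by the cohesin subunit RAD21 at 61.9 and 62.6 and by UHRF1, which guides maintenance methylation, at 57.7 and 54.6. ZFP57 itself was listed at 0 in both libraries, while ZNF445, a zinc finger protein with a related role, had 4.11 and 3.79. TET1, which oxidises methylated cytosine, had 0.299 and 0.369 and a bivalent start.

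The remaining genes at 0 were DNMT3L, a cofactor of germ line methylation, CTCFL, DPPA3, NLRP2, NLRP5, NLRP7 and PADI6, which act mainly in germ cells or the early embryo. KHDC3L had 0.0680 and 0. The 20 genes that passed included DNMT1, the maintenance methyltransferase, at 46.4 and 45.9, CTCF at 23.8 and 24.7 and the Polycomb subunit EZH2 at 23.9 and 22.6.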

How the data were processed

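HK2 cells were profiled by ChIP-seq and RNA-seq. ChIP-seq peaks were called by the authors in each replicate with MACS2, on reads mapped to hg19 by Bowtie2. The deposited lists hold chromosome, start and end only, so no score or depth is given, and the replicate without a number in its label was taken as replicate 1. For RNA-seq, the deposited files hold FPKM, TPM and coverage per transcript, which the authors estimated with StringTie 1.3.3 on GENCODE version 27. The headers name GRCh38 annotation while the methods name hg19, so RNA coordinates were not used. The RNA is called mRNA in the labels, while the methods describe removal of ribosomal RNA. Genes were joined by Ensembl identifier to GENCODE version 44 on GRCh37, in which 55822 of 58243 genes have a start. HYMAI has a second identifier in the RNA files, listed at 0 and not used.

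FPKM was summed per gene. FPKM is no count, so no count test was used, and with a single condition no test was made. The rules for a peak at a start and for overlap of H3K4me3 and H3K27me3 peaks were checked on simulated peaks against a simpler calculation. The main gene calls and the FPKM sums were not checked in this way. Every member is named, and of its start groups those with at least 5 percent of the FPKM of a gene at FPKM 1 or more, or with a mark in both replicates, could be named. The members, gene lists and domains were chosen with earlier results of these data known. The motif was searched on both strands, in windows from 270 bases before to 30 bases from a start. Python 3.11.15, pandas 2.3.3, numpy 2.4.6 and matplotlib 3.10.9 were used. Alternatives covered replicates, TSS window and set, peak width, peak overlap, FPKM threshold, pseudocount, low values, TPM and, chosen after seeing the data, chromosomes 10 and 20 and shared starts.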

Additional observations from a re-analysis of the deposited data

How the results depend on the processing

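Of 59 alternatives to 7 results, 45 left a count within 1.5 times its value or a median within the spread between libraries, and 14 did not. For the median and for the difference in medians, only the 2 single-library alternatives stayed within that spread. These define the spread, so their outcome was fixed in advance, and the other 4 and 5 alternatives moved. At canonical starts alone, 4 members had H3K27me3 and 1 (TP73) a bivalent start, beside 9.41% and 5.42% of protein-coding genes. Bivalent starts were found at 8 members with peaks of either replicate, beside 11.1% of protein-coding genes. With single replicates, members with H3K4me3 numbered 25 to 31, with H3K27ac 16 to 22, with H3K27me3 9 in either case and with a bivalent start 5 to 7. The shares of protein-coding genes changed too. With replicate 1 and replicate 2 they were 71.9% and 78.0% for H3K4me3 and 67.5% and 55.1% for H3K27ac. For H3K27me3 they were 14.5% and 13.0%, and for a bivalent start 7.09% and 10.0%. An FPKM of at least 5 was reached by 12, and with single libraries an FPKM of at least 1 by 19 to 20. Shares of all genes are not given for these FPKM rules. The median log2(FPKM + 1) of 1.45 became 0.88 with a pseudocount of 0.1, 2.51 over members at a mean FPKM of at least 0.1, 2.54 with TPM and 1.90 over protein-coding members, and lay between 1.43 and 1.47 with single libraries. The difference by H3K4me3 of 2.60 became 5.57, 2.15 and 3.88 with the first 3 of these, 1.79 with H3K4me3 peaks of either replicate, 2.75 at canonical starts and 2.55 to 2.64 with single libraries. Pseudocount and TPM change the scale itself. Over all protein-coding genes the median of 2.10 became 1.76 with a pseudocount of 0.1, 3.22 at a mean FPKM of at least 0.1 and 3.34 with TPM. Their difference by H3K4me3 of 3.22 became 6.39, 2.82 and 4.58. The other alternatives change the threshold or the starts, peaks, replicates or genes that enter, and causes beyond that were not tested. Counting members that share a start once left 29, of which 21 had H3K4me3, 14 H3K27ac, 8 H3K27me3, 4 a bivalent start and 18 an FPKM of at least 1. No paired analysis was possible because no result comes from a test. Peak lists without heights and 2 replicates per mark limit how firmly absence at a start can be read.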

Other observations

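Genes that lie beside the imprinted members were looked at as a second list of 60. Of these, 55 are protein-coding, and their shares lay near those of all protein-coding genes. Both libraries gave an FPKM of 1 or more for 31 (56.4%, beside 58.8%), H3K4me3 was present at 36 (65.5%, beside 70.0%), H3K27ac at 30 (54.5%, beside 55.0%), H3K27me3 at 8 (14.5%, beside 11.2%) and a bivalent start at 5 (9.09%, beside 6.38%). Of the 5 lncRNA neighbours, 2 had H3K4me3, 2 H3K27me3, 1 H3K27ac and 1 a bivalent start. The 6 with a bivalent start were GNAS-AS1, BEGAIN, SLC22A3, CALCR, KLF14 and ASCL2.

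GNAS-AS1, the antisense RNA of the GNAS region, had an FPKM of 1.33 and 0.973 and a bivalent start, like the first GNAS start. In the IGF2R domain the antisense lncRNA AIRN was listed at 0 with no mark, and the neighbour SLC22A3 had 0.652 and 0.580 with a bivalent start. Beside the DLK1 to MEG3 cluster, the lncRNAs MEG8 and MEG9 had 0.0902 and 0.0414, and 0.0601 and 0.0412, and DIO3 was listed at 0 with no mark in both replicates. Beside PEG3, MIMT1 was listed at 0 and 0.0421 with H3K4me3 and H3K27ac, and USP29 and ZIM3 were listed at 0 without marks. ASCL2, a transcription factor of the placenta in the KCNQ1OT1 domain, was listed at 0 with a bivalent start, while its neighbours CD81 and NAP1L4 had 135 and 131, and 58.7 and 63.1.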
